A study of Xenopus laevis with 6 samples.

Results

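The genes described here are those of the visual cycle and of visual arrestin, measured in Xenopus laevis animal caps that were injected with antisense morpholinos. They were taken as every probe set whose annotated gene symbol, after its final .L or .S, is rpe65, lrat, rlbp1, rho, sag or arr3. The rule found 9 probe sets of 7 genes among 32539 tested probe sets: 2 for rpe65 (the L and S copies), 1 for lrat.L, 3 for rlbp1.L, 2 for sag (L and S) and 1 for arr3.L. The symbol rho had 0 probe sets, so rhodopsin was not analysed here. Xenopus laevis is allotetraploid, and .L and .S name the copies of a gene (homeologues) on its long and short subgenomes. The symbols were picked because rpe65.L and sag.L had been seen to stand higher in both knockdowns than in Control MO caps on these same arrays, so member values against Control MO are given as a description, with no test.

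An animal cap is the upper ectoderm of a blastula embryo, and without other tissue it develops into epidermis. Embryos made by in vitro fertilization received ERK3 MO1/2 (a pair of morpholinos against ERK3, 40 ng of each), TFAP2A MO1/2 (a pair against TFAP2A, 40 ng of each) or Control MO (80 ng). TFAP2A is a transcription factor of the AP-2 family that acts in embryonic ectoderm, while ERK3 belongs to the atypical MAP kinases. Injection was into the animal side of every cell of the 4-cell embryo, caps were cut out at stage 9, and all groups were collected at stage 15. There were 2 arrays per group, which the labels call biological replicates, and p-values measure the spread between such arrays. A morpholino blocks the translation or splicing of its target RNA, so its target's RNA level does not have to fall, and no strain or age beyond the stage is given in the sources used here.

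In the vertebrate eye, light turns the retinal bound to an opsin from its cis to its all-trans form, and the visual cycle makes the cis form again. In the retinal pigment epithelium LRAT attaches a fatty acid to retinol, RPE65 isomerises the resulting ester, and RLBP1 (CRALBP) carries the cis retinoids. SAG, the rod arrestin, binds light-activated rhodopsin and ends its signal, and ARR3 does so for cone opsins. Both pigment epithelium and photoreceptors belong to the eye, which animal caps do not form when cultured alone.

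Of the arrays as a whole, log2 values correlated at 0.987 to 0.989 within groups and at 0.962 to 0.983 between groups, taken over probe sets, which are no replicates. The median intensity lay between 23.2 and 24.6 and the lower quartile between 6.36 and 6.96 on the 6 arrays. The symbol mapk6 of ERK3 had 0 probe sets, so its RNA was not examined. Intensities of tfap2a.L were 1816.6 and 1425.1 in ERK3 MO1/2 caps, 1495.2 and 1286.8 in TFAP2A MO1/2 caps, and 1125.5 and 753.4 in Control MO caps, and its difference did not pass in either knockdown against Control MO (limma, adjusted p = 0.0847 for ERK3 MO1/2 and 0.171 for TFAP2A MO1/2). The S copy, tfap2a.S, read 1237.1 and 1055.8 in ERK3 MO1/2 caps, 717.9 and 741.8 in TFAP2A MO1/2 caps, and 718.3 and 528.2 in Control MO caps, and rose by 0.89 ± 0.18 with ERK3 MO1/2 against Control MO (limma, adjusted p = 0.0362) but did not pass with TFAP2A MO1/2 (0.24 ± 0.18, adjusted p = 0.471). The array's gapdh quality control, at its 3′ end, read 42.1 and 84.2 in ERK3 MO1/2 caps, 180.5 and 242.5 in TFAP2A MO1/2 caps, and 296.2 and 335.4 in Control MO caps. At its 5′ end gapdh read 16.6 and 37.6, 95.4 and 142.9, and 138.2 and 172.1 in the same order of groups. The actin control at its 3′ end read 6578.3 and 7463.8, 7271.1 and 7931.9, and 7593.3 and 8025.1. At its 5′ end actin read 4 and 3.1, 4.3 and 3.8, and 3.6 and 4, under the lower quartile on every array. What part the gapdh difference has in the results below was not tested.

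The L copy of rpe65, the isomerase, was bright in ERK3 MO1/2 caps, intermediate in TFAP2A MO1/2 caps and near the bottom of the intensity range in Control MO caps. Probe set Xl2.48890.1.S1_at read 137.8 and 127.7 in ERK3 MO1/2 caps, 21.1 and 39.9 in TFAP2A MO1/2 caps, and 5.5 and 5.2 in Control MO caps. No value of one group overlapped with those of another. The share of all probe sets that separate in this way is not given, here or for the members below. With 2 arrays per group such separation is a description only. As multiples of the lower quartile of its own array, rpe65.L stood at 19.8 and 19.4 in ERK3 MO1/2 caps, 3.25 and 6.01 in TFAP2A MO1/2 caps, and 0.87 and 0.803 in Control MO caps. Both Control MO arrays thus lay under their lower quartile, where an intensity has only an upper bound, and folds are given as at least the ratio to that quartile. By that measure rpe65.L was at least 20.6-fold higher in ERK3 MO1/2 caps and at least 4.5-fold higher in TFAP2A MO1/2 caps than in Control MO caps. The fitted difference from Control MO was 4.62 ± 0.29 in log2 intensity with ERK3 MO1/2 and 2.43 ± 0.29 for TFAP2A MO1/2 (± is limma's standard error, with 2 arrays per group). These 2 contrasts share the Control MO arrays.

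The knockdowns were also tested against each other, in a contrast that uses the Control MO arrays only to estimate the spread. Because rpe65.L was picked for its high level on the ERK3 MO1/2 arrays, which enter this contrast too, its p-value here is not independent evidence. Its level was higher in ERK3 MO1/2 caps than in TFAP2A MO1/2 caps by 2.19 ± 0.29 in log2 intensity, a fold of 4.57 (limma, adjusted p = 0.023 over all tested probe sets). Both ERK3 MO1/2 arrays lay above both TFAP2A MO1/2 arrays. As each of the 6 arrays was left out in turn, the difference stayed between 1.73 and 2.65. The call was lost in each of those fits, where 1 group has a single array or fewer arrays estimate the spread. Calls over all tested probe sets also fell in them, so this loss is not particular to rpe65.L. The call was also lost when only those 2 groups were fitted (limma, adjusted p = 0.0547). In that fit the calls over all tested probe sets fell from 1552 to 295. In this contrast 1 of the 9 member probe sets was called, against 4.77% of all tested probe sets. In bulk RNA, fewer cells of a type and less RNA per cell cannot be told apart, and this holds for each level given here.

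**Figure D1:**
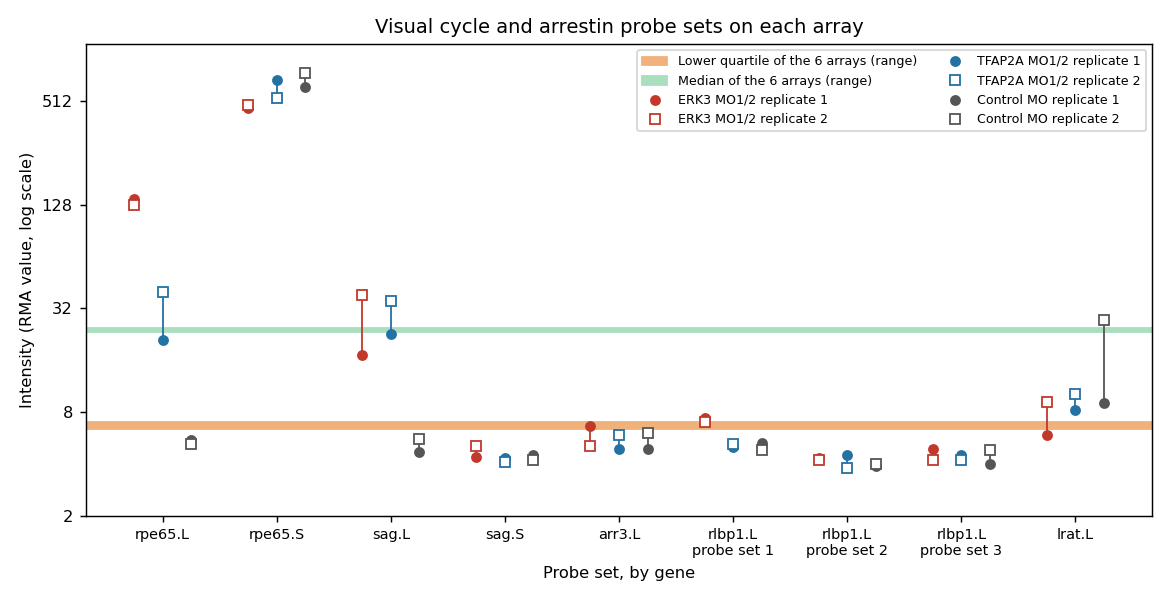
Intensity of each of the 9 member probe sets on each array, on a log axis. Filled circles are replicate 1, open squares replicate 2, lines join the replicates of a group, and the bands are the ranges of the array lower quartile and median; rpe65.L lies at 137.8 and 127.7 in ERK3 MO1/2 caps and under the lower band, at 5.5 and 5.2, in Control MO caps, while sag.S and arr3.L were under the quartile of their array on all 6.

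The S copy of rpe65 had a bright signal in every group. Its probe set Xl2.16557.1.S1_at read 466.5 and 488.6 in ERK3 MO1/2 caps, 677 and 531.8 in TFAP2A MO1/2 caps, and 621.2 and 741.7 in Control MO caps. Both ERK3 MO1/2 values lay below all others, and the TFAP2A MO1/2 and Control MO values overlapped. The difference from Control MO was -0.51 ± 0.17 in ERK3 MO1/2 caps and -0.18 ± 0.17 in TFAP2A MO1/2 caps. The difference ERK3 MO1/2 minus TFAP2A MO1/2 was -0.33 ± 0.17 and did not pass (limma, adjusted p = 0.348). The Control MO caps therefore held a bright rpe65.S signal while the rpe65.L probe set lay under the lower quartile. Whether either probe set also binds RNA of the other copy or of other genes was not tested.

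The other enzyme, lrat.L (probe set Xl2.47677.1.S1_at), was dim. It read 5.9 and 9.1 in ERK3 MO1/2 caps, 8.2 and 10.2 in TFAP2A MO1/2 caps, and 9 and 27.5 in Control MO caps. The groups overlapped, and Control MO replicate 2 stood apart from the other 5 arrays. The difference of -1.10 ± 0.52 for ERK3 MO1/2 minus Control MO was -0.29 without that array, and that of -0.79 ± 0.52 for TFAP2A MO1/2 minus Control MO was 0.02 without it. Between the knockdowns the difference of -0.31 did not pass (limma, adjusted p = 0.811).

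The carrier rlbp1.L had 3 probe sets at or near the bottom of the range. Xl2.17620.1.S1_at read 7.4 and 7 in ERK3 MO1/2 caps, 5 and 5.2 in TFAP2A MO1/2 caps, and 5.3 and 4.8 in Control MO caps. Only the ERK3 MO1/2 values exceeded the lower quartile of their arrays, at 1.07 and 1.06 times that quartile, and they did not overlap with the other groups. By the bound on dim values this was at least 1.12-fold above Control MO caps and at least 1.1-fold above TFAP2A MO1/2 caps. The fitted ERK3 MO1/2 minus TFAP2A MO1/2 difference did not pass (limma, adjusted p = 0.0831), but did with the replicate number as a block (adjusted p = 0.0391). The other probe sets, Xl2.17830.1.S1_at and Xl2.17830.1.S2_at, lay under the quartile on all 6 arrays, at 3.8 to 4.5 and at 4 to 4.9, and did not pass between the knockdowns (limma, adjusted p = 0.903 and 0.894).

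The L copy of the rod arrestin, sag.L, was above the quartile in both knockdowns and under it in Control MO caps. Probe set Xl2.490.1.S1_at read 17.1 and 38.4 in ERK3 MO1/2 caps, 22.7 and 35.1 in TFAP2A MO1/2 caps, and 4.7 and 5.6 in Control MO caps. The knockdown values overlapped with each other and all 4 exceeded both Control MO values. The difference from Control MO was 2.31 ± 0.41 with ERK3 MO1/2, at least 3.97-fold, and 2.45 ± 0.41 with TFAP2A MO1/2, at least 4.38-fold. In log2 intensity ERK3 MO1/2 minus TFAP2A MO1/2 was -0.14 ± 0.41 and did not pass (limma, adjusted p = 0.904). That contrast ranged from -0.72 to 0.44 as single arrays were left out, so its direction rests on single arrays.

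The S copy of sag and the cone arrestin arr3.L lay at the bottom of the intensity range in every group. The probe set of sag.S (Xl2.28922.1.S1_at) read 4.4 and 5.1 in ERK3 MO1/2 caps, 4.3 and 4.1 in TFAP2A MO1/2 caps, and 4.5 and 4.2 in Control MO caps. That of arr3.L (Xl2.325.1.S1_at) read 6.6 and 5.1 in ERK3 MO1/2 caps, 4.9 and 5.9 in TFAP2A MO1/2 caps, and 4.9 and 6 in Control MO caps. Both were under the lower quartile on all 6 arrays, so no fold is given, and neither passed between the knockdowns (limma, adjusted p = 0.535 for sag.S and 0.818 for arr3.L).

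In all, 7 of the 9 member probe sets were under the lower quartile on both Control MO arrays and 4 on all 6 arrays. By a rule set after the values were seen, rpe65.L was 1 of 4 probe sets (0.0534%) of the 7489 under the quartile on both Control MO arrays that lay above the median on both ERK3 MO1/2 arrays. Another was tspan4.S, a tetraspanin, at 53.9 and 51.6 in ERK3 MO1/2 caps, 5.9 and 5.8 in TFAP2A MO1/2 caps, and 5.7 and 5.4 in Control MO caps. In the same order of groups mx1.L, an interferon-induced dynamin-like GTPase, read 37.8 and 34.1, 5.7 and 18.3, and 4.9 and 4.9. The last, probe set Xl2.55361.1.A1_at, which has no symbol, read 346.2 and 325.9, 5.8 and 8.5, and 5.5 and 5.3. A further count took probe sets above the quartile on all 4 knockdown arrays: 104 of the 7489 (1.39%), with rpe65.L and sag.L the members among them. Both were picked for standing higher in the knockdowns than in Control MO caps, so their place in these counts describes them only.

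**Figure D2:**
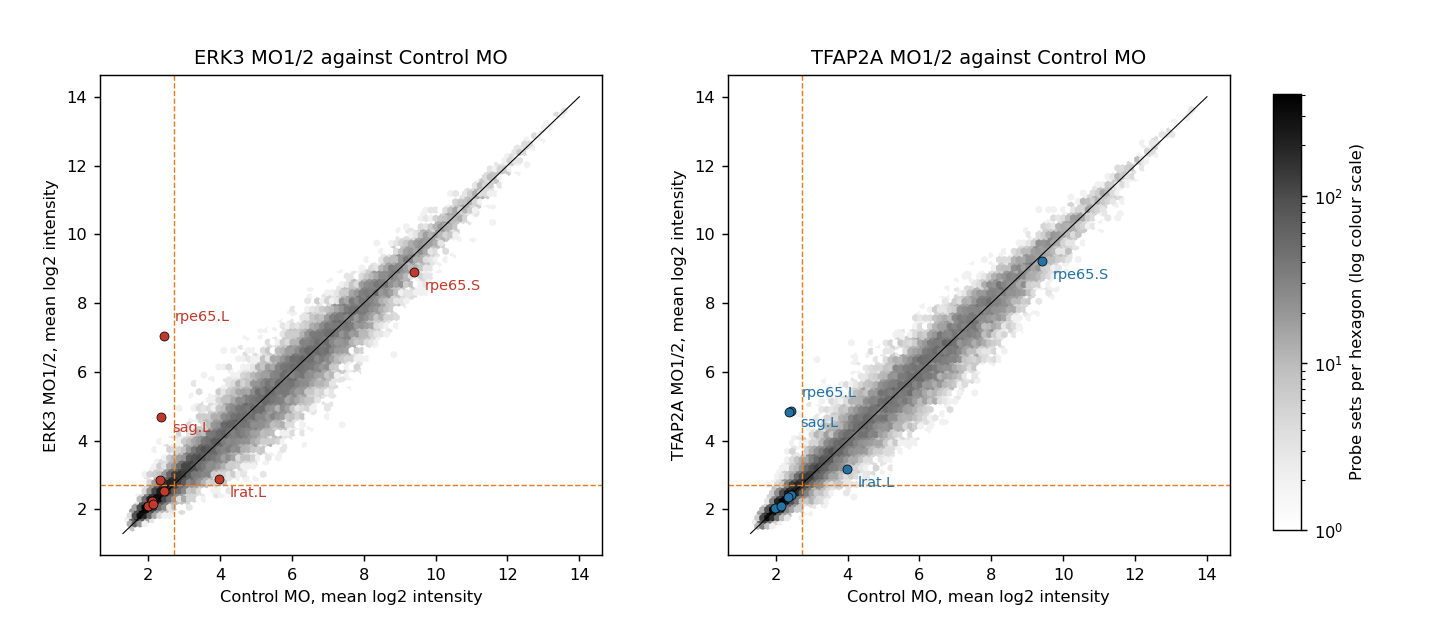
Mean log2 intensity of every probe set in ERK3 MO1/2 caps (left) and TFAP2A MO1/2 caps (right) on the vertical axis against Control MO caps on the horizontal axis, with grey hexagons coloured by the number of probe sets on a log scale, coloured points for the 9 members, a diagonal of equal level and dashed lines at the mean lower quartile. The rpe65.L point lies 4.62 above the diagonal in the left panel and 2.43 in the right panel, and sag.L lies 2.31 and 2.45 above it.

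The L and S copies of rpe65 were then set against each other, on values raised to the array lower quartile where they lay under it, a comparison chosen after the values were seen. The L copy of rpe65 differed from Control MO by 4.36 in ERK3 MO1/2 caps and the S copy by -0.51, an L minus S gap of 4.87 in log2 intensity. Of 2009 gene pairs with both copies measured, 0 had a larger gap in that contrast, and the median size was 0.28. Of the 2009 pairs, 240 had 1 copy and 180 both copies under the quartile on both Control MO arrays. In TFAP2A MO1/2 caps against Control MO the gap of rpe65 was 2.35, with 5 pairs larger (0.249%), and the median size was 0.29. Since rpe65 was picked for its difference from Control MO, these positions describe it only. Of sag, the S copy lay under the quartile on all 6 arrays, so an L minus S gap is not given: sag.L was 1.99 and 2.13 higher in ERK3 MO1/2 and TFAP2A MO1/2 caps than in Control MO caps by the same floored values, and sag.S has only an upper bound.

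**Figure D3:**
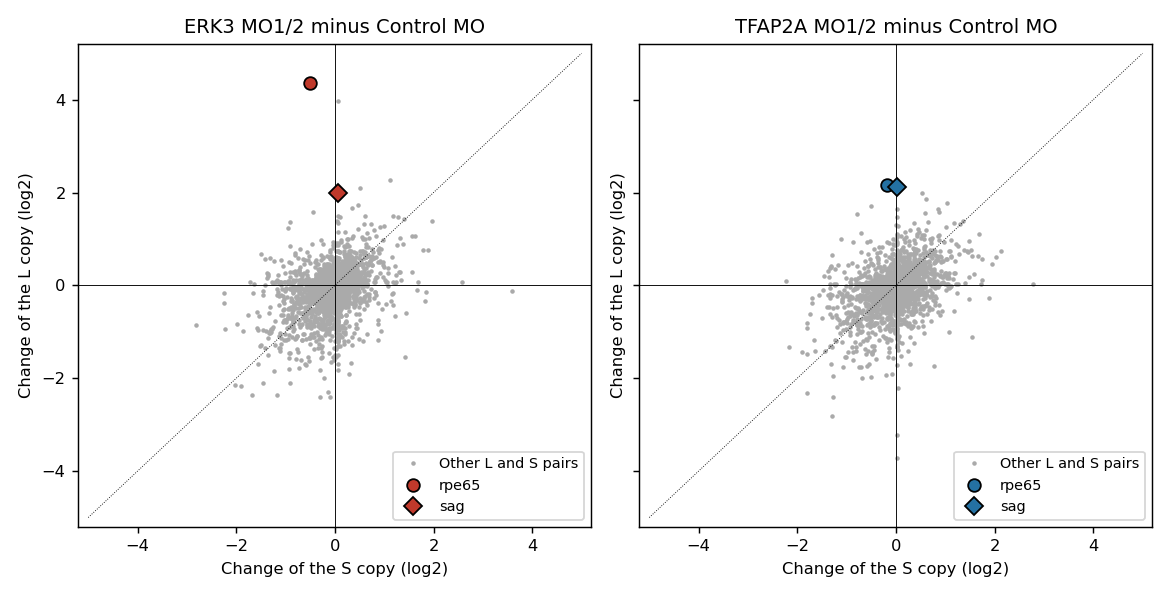
Difference from Control MO in log2 intensity of the L copy (vertical axis) against that of the S copy (horizontal axis) for 2009 homeologue pairs, in ERK3 MO1/2 caps (left) and TFAP2A MO1/2 caps (right), with values under the lower quartile raised to it. The dotted line marks equal change; rpe65 lies at an L change of 4.36 and an S change of -0.51 in the left panel, and sag at 1.99 and 0.07, where the S value is that of the floor.

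The genes whose pattern over the 6 arrays was most like that of rpe65.L, by Pearson correlation of log2 intensity among 3018 genes with a range of at least 1, were c6orf136.L (0.997), dpp8.L (0.995), lgals4.1.s (0.993), bloc1s2.L (0.989) and atad3a.L (0.989). Genes whose symbol is only a locus or clone identifier were passed over. The 6 arrays fall into 3 groups of 2, so the correlations describe the group levels and carry no test. They also ignore the size of a change. The difference ERK3 MO1/2 minus Control MO was 0.99 (bloc1s2.L) to 3.21 (lgals4.1.s) for these genes, against 4.62 for rpe65.L. Of the 5, dpp8.L is a dipeptidyl peptidase of the cytoplasm, lgals4.1.s a galectin, bloc1s2.L a subunit of a complex for lysosome-related organelles and atad3a.L a mitochondrial ATPase. The galectin lgals4.1.s had the same order of groups, with 58.9 and 58.1 in ERK3 MO1/2 caps, 20 and 23.6 in TFAP2A MO1/2 caps, and 5.7 and 7 in Control MO caps. The pattern of c6orf136.L was 339.9 and 334 in ERK3 MO1/2 caps, 173.1 and 195.4 in TFAP2A MO1/2 caps, and 90.6 and 93.5 in Control MO caps. The arrestin sag.L correlated with rpe65.L at 0.82, and 234 of the compared genes were closer to rpe65.L.

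The nearest patterns to sag.L, with genes passed over in the same way, were tdrd7.L (0.988), pou2f1.S (0.987), phlda1.L (0.985), manba.L (0.981) and rap1gap.L (0.98). Of these, tdrd7.L is a Tudor domain protein of RNA granules, pou2f1.S the octamer-binding transcription factor Oct1, manba.L a lysosomal mannosidase and rap1gap.L a GTPase-activating protein for Rap1. Levels of tdrd7.L were 156.6 and 207.4 in ERK3 MO1/2 caps, 176.1 and 198.6 in TFAP2A MO1/2 caps, and 104.4 and 94.9 in Control MO caps. Both knockdowns lay above Control MO and overlapped with each other, as they did for sag.L.

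The other genes of these pathways were read from lists, and the counts below are of genes called at an adjusted p under 0.05 by limma over all tested probe sets. The background was that 3.95% of the 11303 genes rose and 7.88% fell with ERK3 MO1/2 against Control MO, that 4.91% rose and 7.41% fell with TFAP2A MO1/2 against Control MO, and that 2.58% rose and 3.11% fell in ERK3 MO1/2 against TFAP2A MO1/2 caps. Of the 186 listed genes, 54 calls were made over the 3 contrasts: 17, 23 and 14. No list call lasted through leaving out each of the 6 arrays in turn. Calls over all tested probe sets also fell in those fits, where 1 group has a single array. The losses below are therefore not particular to the listed genes. Of the 17 calls of ERK3 MO1/2 against Control MO, all 17 ended without either Control MO array, 16 without ERK3 MO1/2 replicate 1 and 8 without ERK3 MO1/2 replicate 2, and leaving out either TFAP2A MO1/2 array ended 4. Of the 23 calls of TFAP2A MO1/2 against Control MO, 18 ended when TFAP2A MO1/2 replicate 1 was left out, 21 when TFAP2A MO1/2 replicate 2 was, 17 when Control MO replicate 1 was and 23 when Control MO replicate 2 was, and leaving out either ERK3 MO1/2 array ended 3. Of the 14 between the knockdowns, all 14 ended without any 1 knockdown array and 10 without either Control MO array.

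Of 20 other retinoid-handling genes, 8 were under the lower quartile on all 6 arrays. With ERK3 MO1/2 against Control MO 2 rose and 1 fell, with TFAP2A MO1/2 against Control MO 0 rose and 1 fell, and 1 rose in ERK3 MO1/2 against TFAP2A MO1/2 caps. The list medians were 0.03, -0.04 and 0.12 in log2 intensity, against 0.01, 0.01 and 0 over all genes. The list's summed intensity was 718.4 and 757.2 in ERK3 MO1/2 caps, 1334.6 and 1103.6 in TFAP2A MO1/2 caps, and 1371.6 and 1346 in Control MO caps. The sum mostly follows the brighter genes. Among these, rdh10.L (-1.14 ± 0.37, limma adjusted p = 0.107) and rdh10.S (-1.36 ± 0.33, limma adjusted p = 0.0544) did not pass with ERK3 MO1/2 against Control MO. The genes under the quartile included the retinal-specific rgr and rbp3.L, a retinal opsin and the retinoid-binding protein of the space between photoreceptors and pigment epithelium.

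Retinol saturase, retsat.L, read 158.2 and 214.9 in ERK3 MO1/2 caps, 331.7 and 270.2 in TFAP2A MO1/2 caps, and 448.2 and 489.7 in Control MO caps. It fell by 1.35 ± 0.19 with ERK3 MO1/2 against Control MO (limma, adjusted p = 0.0156). The cellular retinol-binding protein rbp2.L read 21.2 and 27.5 in ERK3 MO1/2 caps, 13.8 and 14.8 in TFAP2A MO1/2 caps, and 12.4 and 10.7 in Control MO caps, and rose by 1.07 ± 0.17 with ERK3 MO1/2 against Control MO (adjusted p = 0.0195 by limma). Transthyretin, ttr.L, a serum carrier of thyroid hormone and of retinol-binding protein, read 12.4 and 10.5 in ERK3 MO1/2 caps, 6.9 and 6.4 in TFAP2A MO1/2 caps, and 6.4 and 6.5 in Control MO caps. It rose with ERK3 MO1/2 against both Control MO (0.82 ± 0.14, adjusted p = 0.0218 by limma) and TFAP2A MO1/2 (0.78 ± 0.14, adjusted p = 0.0369 by limma). On 2 arrays ttr.L lay under the lower quartile, and its other Control MO and TFAP2A MO1/2 values were near it. The fitted sizes thus rest on levels near the bottom of the range. The retinal reductase dhrs3.L read 122 and 86.6 in ERK3 MO1/2 caps, 82.4 and 68.1 in TFAP2A MO1/2 caps, and 170.9 and 171.5 in Control MO caps, and fell by 1.19 ± 0.20 with TFAP2A MO1/2 against Control MO (adjusted p = 0.0207 by limma). Of the enzyme family of rpe65, bco2.L was the 1 gene measured, at 41.2 and 76 in ERK3 MO1/2 caps, 57.2 and 83.8 in TFAP2A MO1/2 caps, and 54.8 and 75.5 in Control MO caps, and it passed in 0 contrasts, with 0 at an unadjusted p under 0.05 by limma.

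Of 28 opsin and phototransduction genes, 20 were under the lower quartile on all 6 arrays. These included opn1lw.L and opn1sw.L, cone opsins, and the transducin gnat1.S. With ERK3 MO1/2 against Control MO 0 rose and 0 fell by limma (1 had an unadjusted p under 0.05), with TFAP2A MO1/2 against Control MO 0 rose and 2 fell, and 1 rose in ERK3 MO1/2 against TFAP2A MO1/2 caps. The list medians were 0.08, 0.03 and 0.07. The genes that fell were both copies of gnb3, a G protein beta subunit of cones that other cells also make. The L copy, gnb3.L, read 860.4 and 916 in ERK3 MO1/2 caps, 197.8 and 230.4 in TFAP2A MO1/2 caps, and 962.2 and 1184.6 in Control MO caps. It fell by 2.32 ± 0.16 with TFAP2A MO1/2 against Control MO (limma, adjusted p = 0.00607) and stood 2.06 ± 0.16 higher in ERK3 MO1/2 than in TFAP2A MO1/2 caps (adjusted p = 0.012 by limma). The S copy, gnb3.S, fell by 1.80 ± 0.40 with TFAP2A MO1/2 against Control MO (limma, adjusted p = 0.0428).

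Of 11 other arrestins, arrestin-domain proteins and receptor kinases, 2 were under the quartile on all 6 arrays. With ERK3 MO1/2 against Control MO 1 rose and 0 fell, with TFAP2A MO1/2 against Control MO 1 rose and 2 fell, and 1 rose in ERK3 MO1/2 against TFAP2A MO1/2 caps, with list medians of -0.06, -0.23 and 0.04. Beta-arrestin 2, arrb2.L, which acts on many receptors outside the eye, read 313.1 and 297.9 in ERK3 MO1/2 caps, 309.4 and 316.2 in TFAP2A MO1/2 caps, and 197.2 and 197.1 in Control MO caps. It rose by 0.63 ± 0.11 with ERK3 MO1/2 (limma, adjusted p = 0.0268) and by 0.67 ± 0.11 with TFAP2A MO1/2 (adjusted p = 0.0224), both against the same Control MO arrays. The S copy, arrb2.S, read 117.3 and 281.6, 94.7 and 323.9, and 228.8 and 297.1 in the same order of groups. Its difference from Control MO did not pass with ERK3 MO1/2 (-0.52 ± 0.65, limma adjusted p = 0.663) or TFAP2A MO1/2 (-0.57 ± 0.65, limma adjusted p = 0.65). The arrestin-domain gene arrdc3.S fell by 0.76 ± 0.14 with TFAP2A MO1/2 against Control MO (adjusted p = 0.0283 by limma) and was 0.86 higher in ERK3 MO1/2 than in TFAP2A MO1/2 caps (adjusted p = 0.0333). The receptor kinase grk6.S fell by 1.13 ± 0.20 with TFAP2A MO1/2 against Control MO (adjusted p = 0.0248 by limma).

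The caps were checked against markers of the tissue that their labels give and of the tissues in which the visual cycle is known. The epidermal keratin krt70.S was near the top of the intensity range on every array, at 11248.6 and 10665.9 in ERK3 MO1/2 caps, 11267.8 and 10927.5 in TFAP2A MO1/2 caps, and 11236.3 and 10666.7 in Control MO caps. In log2 intensity the epidermal list had a median of -0.32 with ERK3 MO1/2 and -0.25 with TFAP2A MO1/2, each against Control MO. The median of ERK3 MO1/2 minus TFAP2A MO1/2 was 0.17. The list's summed intensity was 42985.3 and 46283 in ERK3 MO1/2 caps, 37947.6 and 38489.3 in TFAP2A MO1/2 caps, and 51248.2 and 54139.8 in Control MO caps. Of 33 epidermal genes 6 were under the quartile on all 6 arrays, 1 rose (tfap2a.S) and 4 fell with ERK3 MO1/2 against Control MO, and 0 rose and 9 fell with TFAP2A MO1/2 against Control MO, with 2 higher and 0 lower in ERK3 MO1/2 than in TFAP2A MO1/2 caps. Among them, the keratin krt12.5.S read 3934.5 and 3983.7 in ERK3 MO1/2 caps, 1072.1 and 1290.5 in TFAP2A MO1/2 caps, and 5065.2 and 5489.6 in Control MO caps, and fell by 2.16 ± 0.14 with TFAP2A MO1/2 against Control MO (limma, adjusted p = 0.00594). The cornified-envelope gene evpl.L fell by 1.3 ± 0.12 with TFAP2A MO1/2 against Control MO (adjusted p = 0.00792 by limma), and its relative ppl.L fell by 1.22 ± 0.17 with ERK3 MO1/2 against Control MO (adjusted p = 0.0151 by limma). The epidermal transcription factor tp63.L fell by 1.16 ± 0.16 with ERK3 MO1/2 (adjusted p = 0.0142 by limma) and fell by 1.37 ± 0.16 with TFAP2A MO1/2 (adjusted p = 0.0102 by limma), both against Control MO. It was dim, at 7.1 and 7.9 in ERK3 MO1/2 caps, 6 and 7.1 in TFAP2A MO1/2 caps, and 15.5 and 18.3 in Control MO caps. The brighter tp63.S, at 98.8 and 138.3 in Control MO caps, did not pass with ERK3 MO1/2 (-0.80 ± 0.24, limma adjusted p = 0.0925). With TFAP2A MO1/2 it fell by 1.33 ± 0.24 (limma, adjusted p = 0.0252).

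Markers of eye cells were counted in the same way. Of 22 photoreceptor and eye transcription factors 8 were under the quartile on all 6 arrays, including the rod factor nrl.S and the retinal factor rax.L. Of the list 0 rose and 1 fell with ERK3 MO1/2 against Control MO, 0 rose and 3 fell with TFAP2A MO1/2 against Control MO, and 0 rose and 1 fell in ERK3 MO1/2 against TFAP2A MO1/2 caps (tbx2.S, by 0.87, limma adjusted p = 0.0447). The medians of these genes were 0.03, 0.04 and 0.12 in log2 intensity, in the same order of contrasts. Their summed intensity was 575.2 and 610 in ERK3 MO1/2 caps, 795.4 and 754.5 in TFAP2A MO1/2 caps, and 615.1 and 711.3 in Control MO caps. The sum mostly follows the copies of tbx2. In the same order of groups tbx2.L read 202.3 and 229.3, 277.4 and 263.9, and 192.6 and 189.8. Levels of tbx2.S were 147.6 and 175.7, 299.1 and 288.5, and 169.8 and 212.7. The eye factor pax6.L read 41.2 and 21.8, 55.4 and 25.5, and 15.7 and 15.1 in that order. Each knockdown value of pax6.L lay above both Control MO values, as did those of other listed genes such as tbx2.L. The share of all genes that separate in this way is not given, so this is a description only. The difference of pax6.L from Control MO did not pass with ERK3 MO1/2 (0.96 ± 0.43, limma adjusted p = 0.217) or with TFAP2A MO1/2 (1.29 ± 0.43, limma adjusted p = 0.118). The head and eye factor otx1.L read 33.7 and 34.8 in ERK3 MO1/2 caps, 33.2 and 36.9 in TFAP2A MO1/2 caps, and 89.6 and 100 in Control MO caps, and fell by 1.47 ± 0.13 with ERK3 MO1/2 (adjusted p = 0.00807 by limma) and fell by 1.44 ± 0.13 with TFAP2A MO1/2 (adjusted p = 0.00783 by limma). The head factor otx2.S read 5.7 and 7.2 in ERK3 MO1/2 caps, 4.8 and 5.6 in TFAP2A MO1/2 caps, and 9.9 and 11.4 in Control MO caps, and was at least 0.69 lower in log2 intensity with TFAP2A MO1/2 than with Control MO (adjusted p = 0.0206 by limma). The L copy, otx2.L, at 16.2 and 49.5 in Control MO caps, did not pass in that contrast (-2.06 ± 0.52, limma adjusted p = 0.0578). The photoreceptor factor crx.S read 9.8 and 7.6 in ERK3 MO1/2 caps, 5.7 and 5.3 in TFAP2A MO1/2 caps, and 9.9 and 9.8 in Control MO caps, and was at least 0.59 lower in log2 intensity with TFAP2A MO1/2 than with Control MO (adjusted p = 0.0276 by limma). The L copy, crx.L, was at least 0.26 lower in that contrast and did not pass (limma, adjusted p = 0.198).

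Of 10 pigment-cell genes, which pigment epithelium and melanocytes share, 2 were under the quartile on all 6 arrays. Against Control MO 0 rose and 1 fell with ERK3 MO1/2, 1 rose and 1 fell with TFAP2A MO1/2, and 1 was higher and 1 lower in ERK3 MO1/2 than in TFAP2A MO1/2 caps. Their summed intensity was 2151.1 and 2490.6 in ERK3 MO1/2 caps, 2509.5 and 2682 in TFAP2A MO1/2 caps, and 2186.9 and 2448.8 in Control MO caps. The brightest gene of the list, pmel.S, read 736.2 and 1054.5, 768 and 941.4, and 562.1 and 682.2 in the same order of groups. Its difference from Control MO did not pass with ERK3 MO1/2 (0.51 ± 0.22, limma adjusted p = 0.202) or TFAP2A MO1/2 (0.46 ± 0.22, limma adjusted p = 0.251). The melanosome enzyme tyrp1.L read 235.1 and 230.1 in ERK3 MO1/2 caps, 80.1 and 66.4 in TFAP2A MO1/2 caps, and 252.7 and 147.4 in Control MO caps. It fell by 1.40 ± 0.26 with TFAP2A MO1/2 against Control MO (adjusted p = 0.0277 by limma), and ERK3 MO1/2 minus TFAP2A MO1/2 was 1.67 ± 0.26 (adjusted p = 0.0289 by limma). The receptor gene kit.S of melanocyte precursors fell by 1.03 ± 0.15 with ERK3 MO1/2 against Control MO (adjusted p = 0.0163 by limma). Its L copy, kit.L, did not pass in that contrast (0.07 ± 0.26, limma adjusted p = 0.899), at 143.6 and 166.2 in ERK3 MO1/2 caps and 116.1 and 187.5 in Control MO caps. The gene that rose with TFAP2A MO1/2 was gpr143.L, a melanosome receptor, by 0.61 ± 0.12 against Control MO (adjusted p = 0.0306 by limma).

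The remaining marker lists were those of the pineal gland, the lens, neural tissue, and mesoderm and endoderm. Of 3 pineal genes 2 were under the quartile on all 6 arrays, as were 13 of 21 lens genes, and 0 genes of either list were called in any of the 3 contrasts by limma. At an unadjusted p under 0.05 there were 0 pineal genes in each contrast, with aanat.L, a melatonin enzyme, between 5.3 and 6.4 on the 6 arrays. There were 1, 2 and 0 lens genes at that p for ERK3 MO1/2 against Control MO, TFAP2A MO1/2 against Control MO and ERK3 MO1/2 against TFAP2A MO1/2, and the lens crystallin cryaa.S lay between 13 and 24.9. With ERK3 MO1/2 it was crybb2.L, at 7.2 and 10.9 against 4.7 and 5.2 in Control MO caps (at least 0.46 higher, limma adjusted p = 0.0596). With TFAP2A MO1/2 crybb3.L was higher, at 12 and 14.8 against 5.2 and 6.1 in Control MO caps (at least 1.05, limma adjusted p = 0.0589). The other, prox1.L, was lower (-0.41 ± 0.15, limma adjusted p = 0.133). Of 13 neural genes 1, and of 24 mesoderm and endoderm genes 2, were under the quartile on all 6 arrays. Genes above it on a single array, such as chrd.1.S, are outside that count. It therefore does not give the number of markers with a measurable signal. Of the 13 neural genes 1 fell with ERK3 MO1/2 against Control MO, 0 were called with TFAP2A MO1/2 against Control MO (3 at an unadjusted p under 0.05 by limma) and 1 was lower in ERK3 MO1/2 than in TFAP2A MO1/2 caps. That gene, the neuronal tubulin tubb2b.S, read 166.2 and 203.7 in ERK3 MO1/2 caps, 444.1 and 544.7 in TFAP2A MO1/2 caps, and 453.1 and 502.9 in Control MO caps. Of 24 mesoderm and endoderm genes 0 rose and 5 fell with ERK3 MO1/2 against Control MO, 2 rose and 1 fell with TFAP2A MO1/2 against Control MO, and 0 rose and 5 fell in ERK3 MO1/2 against TFAP2A MO1/2 caps. Their list medians were -0.67, 0.01 and -0.50 in log2 intensity. The endoderm and heart factors gata4.L and gata4.S fell by 1.03 ± 0.12 (limma, adjusted p = 0.0101) and fell by 1.12 ± 0.21 (adjusted p = 0.0292) with ERK3 MO1/2 against Control MO, and brachyury, tbxt.S, fell by 1.91 ± 0.33 (adjusted p = 0.0243 by limma). The homeobox gene mix1.S was at least 0.40 higher with TFAP2A MO1/2 than with Control MO (adjusted p = 0.0164 by limma).

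**Figure D4:**
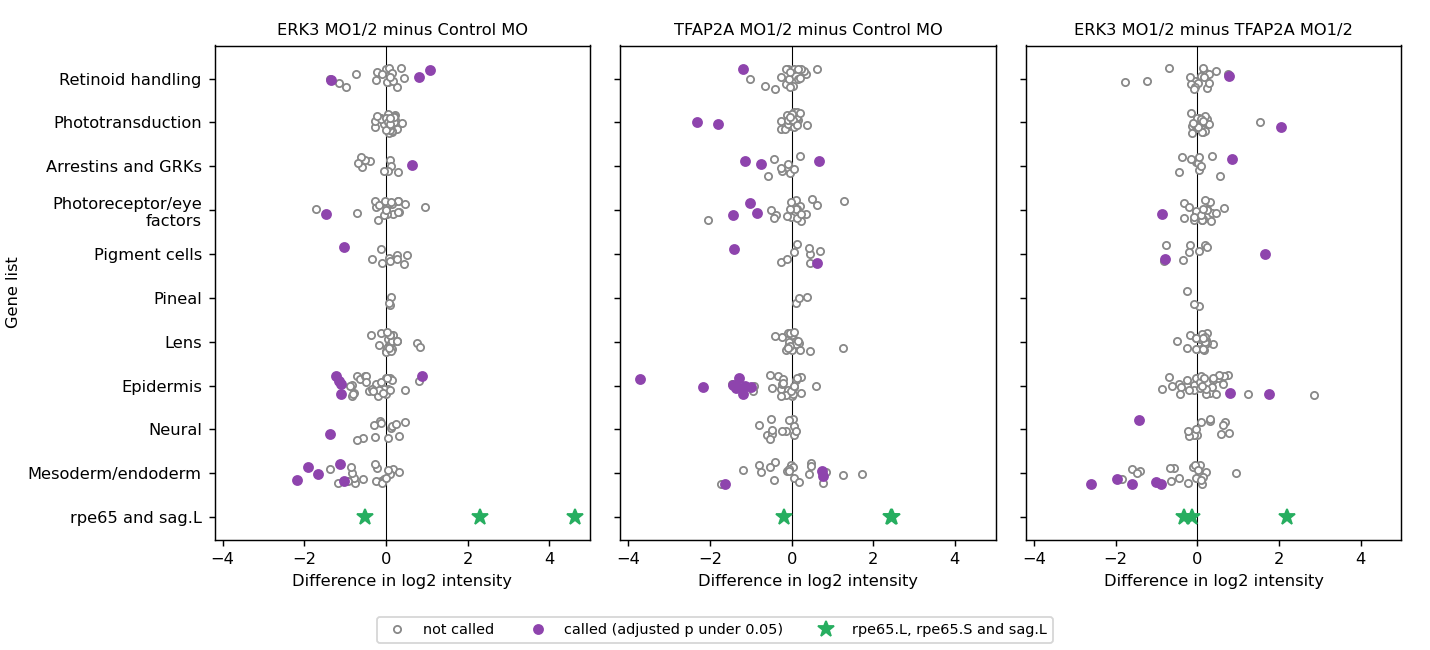
Difference in log2 intensity of each gene in 10 lists (rows of points), in 3 panels, for ERK3 MO1/2 minus Control MO (left), for TFAP2A MO1/2 minus Control MO (middle) and for the knockdowns against each other (right). Filled points were called at an adjusted p under 0.05, open points were not, and stars show rpe65.L, rpe65.S and sag.L without regard to a test; in the left panel the rpe65.L star at 4.62 lies to the right of every listed gene.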

How the data were processed

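RNA of 6 animal cap samples, 2 per group, was measured on an Affymetrix GeneChip array for Xenopus laevis from 250 ng of total RNA. Per the series' design text, the authors used Expression Console (version not stated there) to compute a normalized intensity per probe set by robust multiarray averaging (RMA), and these were deposited. RMA corrects background, aligns arrays by quantiles and gives 1 value per probe set, which can hide a change shared by most transcripts. The values ran from 2.51 to 14672, so they were linear, and log2 was taken with no added constant.

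Of 32635 probe sets 96 array controls were left out. The platform's annotation named 15495 of the 32539 tested probe sets by a single symbol and 279 by several, left 16765 unnamed, and symbols were updated through the RefSeq table of Xenopus_laevis_v10.1 where the Entrez identifier matched (15384). Each gene of a list was represented by its brightest probe set, and members by all of theirs. No sequence or coordinate is given. In R 4.3.3, limma 3.58.1 (lmFit, eBayes) fitted 1 mean per group to the log2 values, with 3 residual and 2.99 prior degrees of freedom. Tests were two-sided with Benjamini-Hochberg adjustment over all tested probe sets, and the code was tested on simulated data. Precision is limited by the number of arrays.

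The members and lists were chosen with earlier results of these data known. Named genes were all members, up to 4 called genes per list by smallest adjusted p (otherwise a defining gene by level), and the 5 nearest patterns to rpe65.L and to sag.L. Outside this rule, krt70.S, bco2.L, the target tfap2a and markers at the bottom of the range are named for the checks of tissue and target. Also outside it, pax6.L, crybb2.L, crybb3.L, prox1.L and other copies of called genes are named to show differences that were not called. So are pmel.S and the copies of rdh10. The alternatives were 16 added before log2, dim probe sets left out, quantile normalization again, trend and robust eBayes, 2 groups only, the replicate number as a block, other floors and each array left out.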

Additional observations from a re-analysis of the deposited data

How the results depend on the processing

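Adding 16 before log2 made the rpe65.L differences 2.80 with ERK3 MO1/2 and 1.09 with TFAP2A MO1/2 against Control MO, and those of sag.L 1.0 and 1.07; the added constant shrinks differences from dim levels by construction. With the floor at the array median, rpe65.L was at least 5.44-fold and 1.19-fold higher and sag.L at least 1.05-fold and 1.16-fold higher with ERK3 MO1/2 and TFAP2A MO1/2 than with Control MO. A floor at the 10th percentile gave no bound, as the Control MO levels lay above it. Leaving out single arrays gave rpe65.L 4.57 to 4.68 with ERK3 MO1/2 and 1.97 to 2.89 with TFAP2A MO1/2, and sag.L 1.73 to 2.90 and 2.14 to 2.77. Called probe sets numbered 3443 for ERK3 MO1/2 minus Control MO, 3677 for TFAP2A MO1/2 minus Control MO and 1552 for ERK3 MO1/2 minus TFAP2A MO1/2. They became 0 to 2002, 7 to 3000 and 0 to 295 as single arrays were left out, where a lone array is assumed to vary like the other groups. The first count was 0 without either Control MO array (limma, with 7287 and 6539 probe sets at an unadjusted p under 0.05) and the last was 0 without ERK3 MO1/2 replicate 1 (5405). With only the 2 groups compared, the first and last became 2002 and 295, with fewer samples. The members called in ERK3 MO1/2 minus TFAP2A MO1/2 numbered 1, but 0 with 2 groups only and 0 in all 6 fits that left out an array (limma, with 2 or 3 at an unadjusted p under 0.05). The 54 list calls became 4 to 34 as single arrays were left out. Called counts were within 1.5 times of these under the added constant, the filter on dim probe sets, repeated quantile normalization and trend with robust eBayes. That filter left 4 member probe sets.

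Replicate numbers are shared by the groups, but the labels do not say that a number marks a shared batch. Across probe sets the replicate 1 minus replicate 2 differences correlated at 0.5948 between ERK3 MO1/2 and TFAP2A MO1/2, 0.5353 between ERK3 MO1/2 and Control MO and 0.5451 between TFAP2A MO1/2 and Control MO. With the replicate block, called probe sets were 7945, 7934 and 4831 in the same order of contrasts, list calls 134, and members called between the knockdowns 2: rpe65.L and the rlbp1.L probe set Xl2.17620.1.S1_at (a fitted 0.50 and at least 0.13 against the floor in log2 intensity, limma adjusted p = 0.0391).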
